A study of Mus musculus with 8 samples.

Results

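The Kruppel-like factor (KLF) genes were followed in muscle stem cells sorted from hindlimb muscle of mice that had received ketone bodies, the fuel molecules made by the liver in fasting, or phosphate-buffered saline (PBS). The members were the rows of the deposited table whose gene symbol was Klf2, Klf3, Klf4, Klf5, Klf6, Klf7, Klf9, Klf10, Klf13 or Klf15, which gave 10 genes of 25237 in the table. All 10 passed the filter on low values, a mean of at least 10 normalized reads over the libraries, and were among 14022 genes tested. RNA was sequenced from 4 PBS and 4 ketone libraries of wild-type male mice aged 2 to 4 months, sorted as VCAM1+, CD31-, CD45- and Sca1-. All PBS libraries carry the strain entry C57BL/6, whereas the entries of the ketone libraries read C57BL/7, C57BL/8 and, in 2 libraries, C57BL/9. If these entries name strains, strain and treatment cannot be told apart. The sources used here give no dose, route or duration of the ketone treatment. Whether each library was made from a separate animal is not stated, so p-values refer to library-to-library spread, part of which may be technical.

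KLF proteins are transcription factors that bind GC-rich and CACCC sequences through zinc fingers at their C terminus. Their N-terminal parts differ and sort the family into mostly activating members (KLF2, KLF4, KLF5, KLF6 and KLF7), members that repress with the corepressor CtBP (KLF3), and members that recruit the corepressor SIN3A (KLF9, KLF10 and KLF13), while KLF15 stands apart. In mammals KLF2 and KLF4 are known for keeping endothelial cells quiescent, KLF15 for switching muscle and liver to amino acid and lipid use in fasting, and KLF9 and KLF15 as targets of the glucocorticoid receptor.

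The sort was checked on marker transcripts in the same libraries. Each library held between 19174005 and 36870537 recovered reads. Of 12 muscle stem cell markers none was at 0 in any group, 1 was higher and 6 were lower in the ketone libraries, and Pax7, the defining factor of these cells, stood at 2125 ± 301 normalized reads in PBS and 1792 ± 215 in ketone (SD, n = 4 per group throughout). All 17 endothelial markers were higher, and their summed level ran from 11264 to 13795 in PBS and from 43995 in ketone library 3 to 100491 in ketone library 2. Pecam1, which encodes the sort marker CD31, ranged between 649 and 907 in PBS, and between 2130.4 and 5606 in ketone. Ly6a, which encodes the gated-out marker Sca1, had 535 ± 29.7 in PBS and 4907 ± 1742 in ketone and was also called higher. Ptprc, which encodes CD45, was not called, with at most 28.4 in PBS and 30.1, 26.9 and 21.1 in ketone libraries 2 to 4, but 299 in ketone library 1. Vcam1, the gate's positive marker, fell from 42043 ± 3281 to 24880 ± 10765 (limma adjusted p = 0.0206). Of the other lists, 6 of 11 smooth muscle and pericyte markers, 5 of 8 Schwann cell, 5 of 9 tested blood and immune, 8 of 11 myofiber, 2 of 9 fibro-adipogenic and 4 of 7 tenocyte markers were higher, and the blood markers Hbb-bs and Hba-a1 were listed at 0 in all libraries. Lower were 2 smooth muscle and pericyte and 3 fibro-adipogenic markers. Of all tested genes, 12.8% were called higher and 12.8% lower. Summed levels did not overlap between groups for Schwann cell markers (14841 to 15790 in PBS, 16939 to 22235 in ketone), blood and immune markers (868.03 to 1160.2 and 1238 to 9674) and tenocyte markers (3746 to 10628 and 16022 to 37552). They overlapped for myofiber markers (3641 to 4756 and 4071 to 27419, the rest of the ketone libraries reaching at most 5496), smooth muscle and pericyte markers (92444 to 98030.1 and 79109 to 94458) and fibro-adipogenic markers (111010.1 to 154767 and 64181 to 114709). A sum is led by its most abundant genes, such as Des among the smooth muscle and pericyte markers. The mean log2 level did not overlap for myofiber markers (6.04 to 6.52 in PBS, 7.26 to 10.20 in ketone). Nor did it for smooth muscle and pericyte markers (10.65 to 10.88 and 11.08 to 11.68). It overlapped for fibro-adipogenic markers (11.12 to 11.45 and 10.52 to 11.73). Ketone library 1 held the highest sum of both the myofiber and the blood and immune markers. Ketone libraries 1 and 2 also stood apart in the ribosomal RNA precursor Rn45s, with 363069 and 396262 normalized reads. The remaining ketone libraries had 62561 (library 3) and 60108 (library 4), and the PBS libraries had between 79005 and 118863.

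Of the members, 6 rose in the ketone libraries and 4 did not pass the test. Those that rose were, in order of their log2 change, Klf2, Klf15, Klf10, Klf4, Klf3 and Klf7. Of the 10 members 6 were called higher, where 12.8% of all tested genes were, and 0 were called lower, where 12.8% of all tested genes were (limma, adjusted p below 0.05; 0 members lower also at an unadjusted p below 0.05, by edgeR and by DESeq2). In 6 members every ketone library lay above every PBS library, which held for 14.2% of tested genes (28.3% did not overlap in either direction). Of the called members, 5 were at least 2-fold higher on the fitted scale; 8.23% of tested genes were both called and at least 2-fold higher. The median log2 change was 0.84 over the members and -0.01 over all tested genes. The members were chosen with earlier results of these data known, so these shares do not test the family. Of the 4 other KLF genes that were tested, 0 were called.

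**Figure D1:**
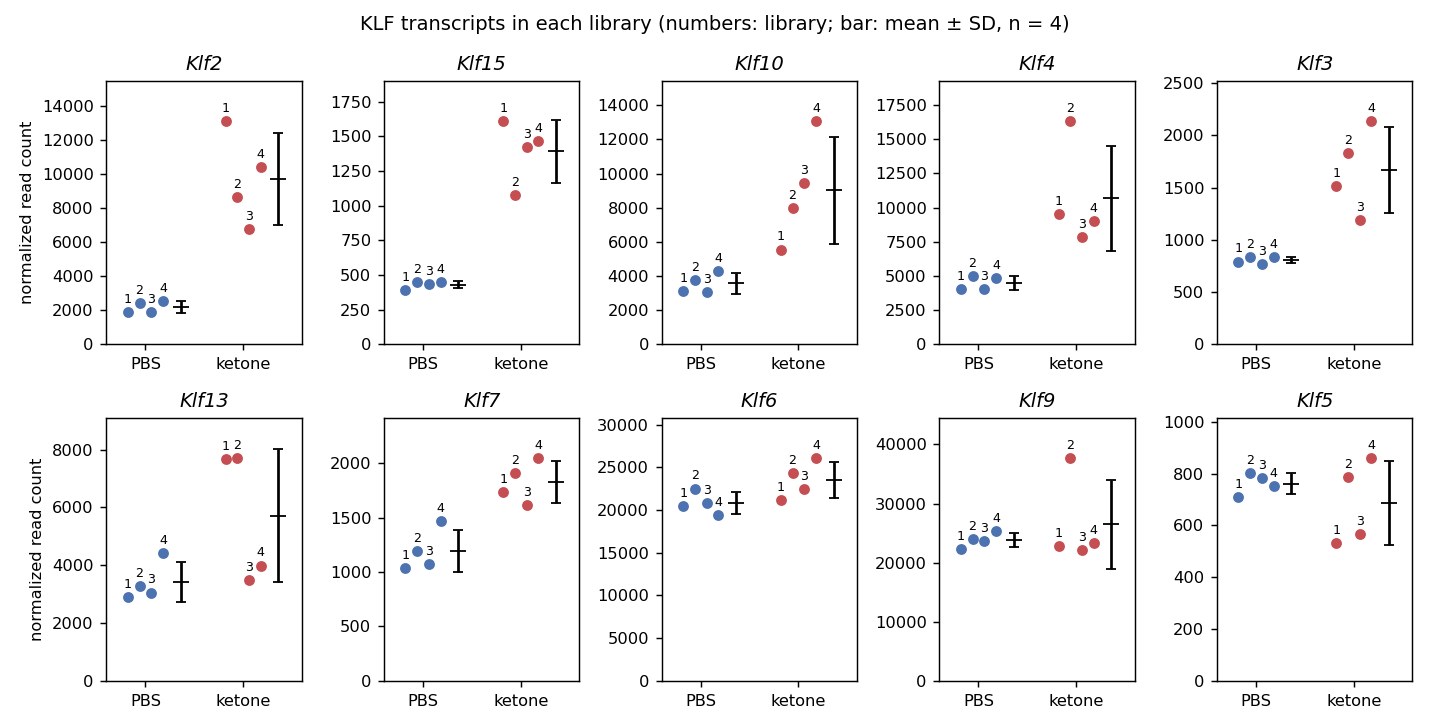
Normalized read counts of the 10 KLF members in each library, 1 panel per gene with its own linear axis from 0. Points are libraries, marked with their number, and bars give the mean ± SD of 4 libraries; in Klf2, Klf15, Klf10, Klf4, Klf3 and Klf7 the ketone points lie above all PBS points.

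In bulk RNA, more cells of a type and more RNA per cell cannot be told apart, and the part of these transcripts in the KLF changes was not tested beyond the values given here. The mean log2 level of the endothelial markers follows the groups (PBS, 8.42 to 8.82; ketone, 10.24 to 11.51). When it was added to the limma model, 0 members passed, and 0 of all 14022 tested genes did. At an unadjusted p below 0.05 were 2 members, Klf15 and Klf10, and 1464 of all tested genes. The median SE of the members was 0.18 without the covariate and 0.61 with it. The log2 change was 1.78 ± 0.58 (SE) for Klf15 and 2.00 ± 0.77 for Klf10 in that fit, close to or above their values without it. Klf2 was at 0.89 ± 0.60, Klf4 at 0.16 ± 0.66, Klf3 at -0.02 ± 0.56 and Klf7 at 0.24 ± 0.54. Without ketone libraries 1 and 2, all 6 members were still called, as they were without ketone library 1 alone, where the log2 change of Klf2 was 1.96 ± 0.17.

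**Figure D2:**
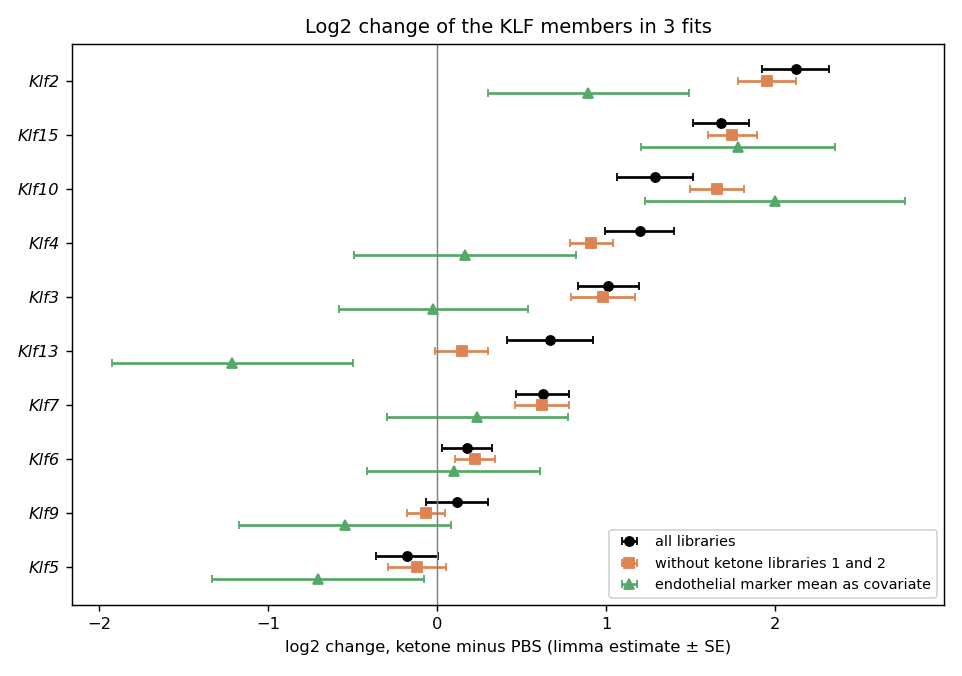
Log2 change of each KLF member, ketone minus PBS, as the limma estimate ± SE on the x axis, in the fit of all libraries (black), the fit without ketone libraries 1 and 2 (orange) and the fit with the endothelial marker mean as a covariate (green). Klf15 and Klf10 have similar or larger estimates with the covariate, and Klf2, Klf4, Klf3 and Klf7 smaller ones. With it Klf3, Klf5, Klf9 and Klf13 lie below 0.

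Promoter sequences are shown for 3 members that rose and for Klf9, which had the highest level per exon length. RefSeq (GRCm38) gave a window of 250 bases before and 50 after the start for 8 of the 10 members; Klf5 and Klf10 are named only. Capitals mark matches to an E-box (CACGTG) in Klf15 and Klf4 and to the MEF2 consensus in Klf2. In Klf9 they mark a FOXO site (GTAAACA) and a match to the AP-1 pattern TGANTCA, where N is any letter.
Klf2 promoter, chr8:72318812-72319111, plus strand: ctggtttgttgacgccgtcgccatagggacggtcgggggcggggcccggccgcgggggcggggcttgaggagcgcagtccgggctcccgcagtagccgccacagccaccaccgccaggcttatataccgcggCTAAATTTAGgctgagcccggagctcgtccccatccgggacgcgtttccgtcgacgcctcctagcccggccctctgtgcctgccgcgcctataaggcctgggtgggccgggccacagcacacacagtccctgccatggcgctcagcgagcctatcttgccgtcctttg
Klf15 promoter, chr6:90462326-90462625, plus strand: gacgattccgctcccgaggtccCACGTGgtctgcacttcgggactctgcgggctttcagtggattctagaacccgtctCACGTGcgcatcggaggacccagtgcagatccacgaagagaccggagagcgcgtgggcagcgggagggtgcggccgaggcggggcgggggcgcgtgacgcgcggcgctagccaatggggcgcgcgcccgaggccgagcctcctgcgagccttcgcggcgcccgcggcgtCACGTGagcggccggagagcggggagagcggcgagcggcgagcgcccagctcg
Klf4 promoter, chr4:55532426-55532725, minus strand: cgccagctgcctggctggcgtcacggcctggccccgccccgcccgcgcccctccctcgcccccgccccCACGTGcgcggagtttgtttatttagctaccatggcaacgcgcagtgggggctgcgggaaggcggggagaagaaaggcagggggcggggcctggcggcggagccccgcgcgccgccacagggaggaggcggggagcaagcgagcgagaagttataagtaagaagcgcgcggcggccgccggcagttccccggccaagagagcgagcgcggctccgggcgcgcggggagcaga
Klf9 promoter, chr19:23140976-23141275, plus strand: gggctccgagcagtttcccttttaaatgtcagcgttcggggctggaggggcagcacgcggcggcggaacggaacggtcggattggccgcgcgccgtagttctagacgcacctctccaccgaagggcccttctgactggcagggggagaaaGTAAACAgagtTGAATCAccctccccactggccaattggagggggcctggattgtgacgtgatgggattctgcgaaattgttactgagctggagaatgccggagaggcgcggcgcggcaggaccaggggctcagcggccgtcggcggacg

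Matches were searched on both strands with 11 motifs, and a match describes letters, not a bound site. The window of Klf2 held 1 match to the MEF2 consensus, CTAAATTTAG, with its first base at position -118 from the start, a motif found in 1.89% of 27025 promoters. Klf15 held 3 E-boxes, at positions -228, -172 and -3, and Klf4 and Klf6 held 1 each; 7.24% of all promoters held at least 1. A GC box (GGGCGG), a sequence that KLF and SP proteins bind, was in 7 of the 8 windows against 35.9% of all promoters, with 6 matches in Klf3, 4 in Klf4 and 0 in Klf9. The CACCC box was in 6 of 8 against 56.7%, with 5 matches in Klf3. These windows were GC-rich, at 58.3% to 76.7% against a median of 52.7% over all promoters, and a GC box is more likely in GC-rich sequence. A CCAAT box was in 4 of 8 windows (37.9% of all promoters). No match in any of the 8 windows was found for the cAMP response element (TGACGTCA, 1.88% of all promoters), the TATA box (TATAAA, 14.2%), the SRF CArG box (1.57%) or the full glucocorticoid receptor site (0.144%), which says only that these letters are not in the windows. Single matches in Klf9 were to the FOXO site, held by 3.55% of all promoters, and the AP-1 pattern, held by 7.93%. That pattern allowed any middle letter, and the match in Klf9 was TGAATCA, with an A there.

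Among the activating members, Klf2 had the largest rise of the family. Klf2 (chromosome 8, 72319033 to 72321656, GENCODE M21 on GRCm38) encodes a factor of endothelial and T cell quiescence. It was counted at 1899, 2401, 1918 and 2570 normalized reads in PBS libraries 1 to 4 and at 13125, 8652, 6764 and 10442 in ketone libraries 1 to 4. The lowest ketone value was in library 3 and lay above the highest PBS library. Among the ketone libraries, library 3 also had the lowest endothelial marker sum, 43995 against at most 13795 in PBS. The part of endothelial RNA in the level of Klf2 was not tested. The mean of Klf2 went from 2197 ± 340.4 to 9746 ± 2708, 4.44 times higher, a log2 change of 2.12 ± 0.20 (SE) with limma adjusted p = 6.91e-06.

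Klf4 (chromosome 4, 55527143 to 55532466), a reprogramming factor that also acts in endothelium and epithelium, stood at 4041, 4980, 4069 and 4863 normalized reads in PBS. In the ketone libraries it was at 9533, 16321, 7858 and 8984. Ketone library 2 was high, and the other 3 were close to each other and above all PBS libraries. The mean rose 2.38 times, from 4488 ± 503 to 10674 ± 3829, with a log2 change of 1.20 ± 0.20 (limma adjusted p = 0.000835), and without ketone library 2 the log2 change was 0.97.

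Klf7 (chromosome 1, 64029447 to 64122282), best known in neurons, had the smallest change among those called. It was at 1033, 1196, 1076 and 1467 normalized reads in PBS and at 1739, 1906, 1617 and 2049 in ketone. The groups came close, with PBS library 4 just under ketone library 3. Klf7 rose 1.53 times, a log2 change of 0.62 ± 0.16 (limma adjusted p = 0.0102), and its adjusted p over the fits that leave out 1 library was at most 0.0497. The lincRNA Gm26649 on the other strand shares 3196 exon bases with Klf7 in the annotation, and no source used here says whether counting used strand, so the value of Klf7 may hold reads of that gene.

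Klf6, a factor of injury and growth responses and the nearest relative of Klf7, was at 20464, 22519, 20795 and 19377 normalized reads in PBS. It was at 21196, 24281, 22438 and 26106 in ketone, and the groups overlapped. Its log2 change of 0.17 ± 0.15 did not pass (limma adjusted p = 0.409). Klf5, linked to proliferating epithelium and smooth muscle, was the only member with a negative estimate, with means of 761 ± 40.6 in PBS and 686 ± 162 in ketone and a log2 change of -0.18 ± 0.18 (limma adjusted p = 0.511). Ketone libraries 1 and 3, at 530.2 and 568, lay below the PBS range of 708 to 800.2, while ketone libraries 2 and 4, at 787 and 860.3, lay in or above it.

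Klf3 (chromosome 5, 64803388 to 64832901), the member that represses with CtBP, rose in all ketone libraries. Its PBS values were tight, at 792, 834, 771 and 835 normalized reads, and its ketone values were 1511.5, 1834, 1187 and 2136. The highest PBS library lay below ketone library 3, the lowest of its group. The mean rose 2.06 times, from 808 ± 31.9 to 1667 ± 409, a log2 change of 1.01 ± 0.18 (limma adjusted p = 0.00112). An antisense transcript, Gm20033, shares 404 exon bases with Klf3 in the annotation.

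The members that recruit SIN3A were uneven. Klf10 (chromosome 15, 38291463 to 38300706), also known as the TGF-beta-inducible early gene, stood at 3147, 3746, 3032 and 4315 normalized reads in PBS and at 5552, 8004, 9436 and 13073 in ketone. All ketone libraries were above PBS, and the highest ketone library was 2.35 times the lowest, the widest ratio of any member within that group. The mean went from 3560 ± 593 to 9016 ± 3145, 2.53 times higher, with a log2 change of 1.29 ± 0.22 (limma adjusted p = 0.000953). Unlike in Klf2, Klf3, Klf4 and Klf7, whose lowest ketone value was in library 3, the lowest value of Klf10 was in ketone library 1.

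Klf13, a regulator of lymphocyte and heart genes, split the ketone libraries. The PBS libraries held 2915, 3296, 3059 and 4427 normalized reads. Ketone libraries 1 to 4 held 7693, 7716, 3487 and 3993. The high values were in ketone libraries 1 and 2, which were also high in Rn45s, and the other ketone libraries lay within the PBS range; the part of that library difference in the value of Klf13 was not tested. Its log2 change of 0.67 ± 0.25 did not pass (limma adjusted p = 0.0675). The adjusted p was 0.0528 with edgeR and 0.0174 with DESeq2 on the recovered reads (DESeq2 called 16.1% of tested genes higher), 0.0166 and 0.0471 by limma without ketone library 3 or 4, and 0.503 without ketone libraries 1 and 2, where the log2 change was 0.14 ± 0.15.

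Klf9, a glucocorticoid- and thyroid hormone-responsive gene, was high in both groups. It was at 22322, 23965, 23740 and 25283 normalized reads in PBS and at 22838, 37736, 22182 and 23255 in ketone. Ketone library 2 stood alone, and the other 3 lay within or just under the PBS range. The log2 change was 0.12 ± 0.19 (limma adjusted p = 0.679), and -0.07 without ketone library 2.

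Klf15 (chromosome 6, 90462576 to 90475238), which promotes amino acid breakdown and lipid use in fasted muscle and liver, had the smallest coefficient of variation in the ketone group among the 5 members at least 2-fold higher. It was counted at 394, 447, 433 and 448 normalized reads in PBS and at 1609, 1074, 1421 and 1469 in ketone. Ketone library 2, the lowest of its group, was above the PBS libraries. Ketone library 3, which had the lowest endothelial marker sum of the ketone libraries, was near the middle of its group. The part of endothelial RNA in the level of Klf15 was not tested. That coefficient was 5.87% in PBS and 16.3% in ketone. Its mean rose 3.24 times, a log2 change of 1.68 ± 0.16 (limma adjusted p = 1.13e-05).

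**Figure D3:**
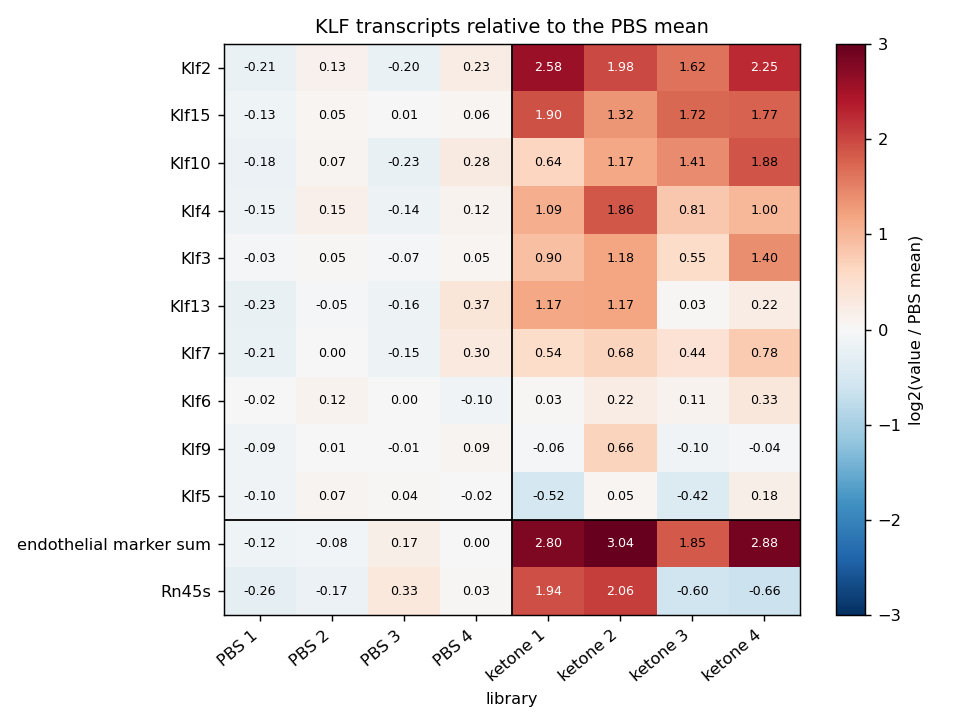
Log2 ratio of each library to the PBS mean for the 10 KLF members (rows, ordered by log2 change), the summed endothelial markers and Rn45s, in the 8 libraries (columns); red is above and blue below the PBS mean. Klf2 is highest in ketone library 1 (2.58) and lowest in ketone library 3 (1.62), Klf10 is highest in ketone library 4 (1.88), and Klf13 is at 1.17 in the first pair of ketone libraries but 0.03 and 0.22 in the other pair.

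Levels were compared between members after division by exon length (normalized reads per kb). In PBS, Klf9 at 4949 ± 252 and Klf6 at 4734 ± 297 led and did not separate from each other, and both were above the 98th percentile of tested genes. Klf4 at 1472 ± 165, Klf2 at 1189 ± 184 and Klf10 at 852 ± 142 followed, with overlapping ranges between neighbours. Klf13 at 455 ± 91.2 was separate from its neighbours on both sides. Klf15, Klf7 and Klf5 lay together at 154 ± 9.05, 147 ± 24.0 and 146 ± 7.80, and Klf3 was last at 71.9 ± 2.83. In the ketone libraries Klf2 reached 5277 ± 1466 per kb, a range that overlapped those of Klf9 (5504 ± 1558) and Klf6 (5353 ± 489). Klf15 at 499 ± 81.4 no longer lay with Klf7 (225 ± 23.3), and Klf3 (148 ± 36.4) and Klf5 (132 ± 31.1) exchanged the last places without separating.

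Summed over the 10 members, the length-scaled level was 13265 to 14908 in PBS and 19600 to 27278 in ketone. Klf9 and Klf6 together made up most of it in PBS, at 34.9% and 33.4%, and 23.4% and 22.7% in ketone. The share of Klf2 was 8.39% in PBS and 22.4% in ketone, that of Klf4 10.4% and 14.9%, that of Klf10 6.01% and 9.16%, and that of Klf15 1.09% and 2.12%. These sums describe the libraries and were not tested.

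**Figure D4:**
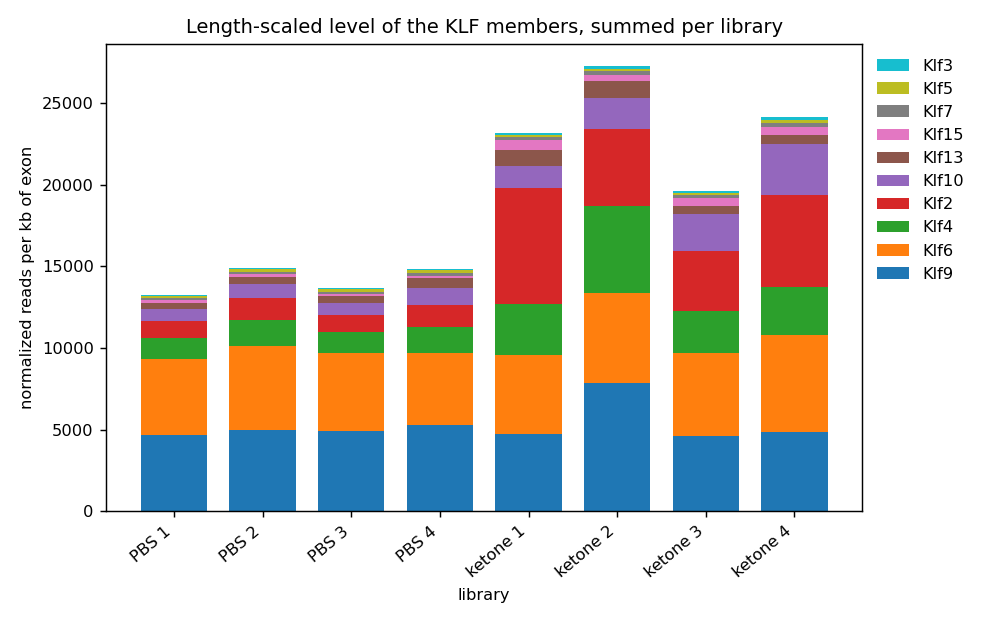
Normalized reads per kb of exon (y axis, from 0) of the 10 KLF members stacked for each of the 8 libraries. The 4 PBS bars reach 13265 to 14908 and the 4 ketone bars 19600 to 27278, and the segments of Klf2 and Klf10 are taller in every ketone bar than in any PBS bar.

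None of the other tested genes of the KLF and SP families passed (all tested genes, 12.8% in each direction and 25.7% in either). With 4 and 5 genes tested, each list is too short to set 0 calls apart from these shares. Of 7 other KLF genes, 4 passed the filter and 0 were called in either direction by limma, edgeR or DESeq2 (1, Klf16, at an unadjusted limma p below 0.05). Klf11, the closest relative of Klf10, was at 1617 ± 95.6 and 1982 ± 592 normalized reads, Klf12 at 304 ± 17.2 and 272 ± 93.6, and Klf16 at 647 ± 66.0 and 470 ± 138, in PBS and ketone in that order. Klf8 was low, at 10.1 ± 7.05 and 27.99 ± 17.6. Klf1 and Klf14 were below the filter and Klf17 was listed at 0 in all libraries. Of 9 SP genes, which bind the same kind of GC box, 5 were tested and 0 called by limma, edgeR or DESeq2 (0 at an unadjusted limma p below 0.05), with a log2 change of 0.13 ± 0.17 for Sp1 and 0.30 ± 0.18 for Sp3; Sp6 and Sp8 were listed at 0.

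Of 26 genes of partners and regulators of KLF proteins 6 (23.1%) were called, close to the 25.7% called among all tested genes. Among 7 corepressor genes Hdac2 fell by 0.68 on the log2 scale (limma adjusted p = 0.00878) and 6 were not called, among them Ctbp1, Ctbp2 and Sin3a. Of 5 ubiquitin ligase genes that act on KLF proteins, Smurf1 fell by 0.50 (limma adjusted p = 0.0259) and 4, with Wwp1 and Fbxw7, did not pass. Of 14 upstream regulators 1 rose and 3 fell. Mef2c, whose family activates Klf2 and Klf4 downstream of the kinase ERK5, rose from 125 ± 39.9 to 625 ± 274 normalized reads (log2 change 2.26, limma adjusted p = 0.000236), and its lowest ketone value was in library 3. Mapk7, which encodes ERK5, fell by 0.77 on the log2 scale, Smad2 by 0.61 and Srf by 0.52 (limma adjusted p = 0.025, 0.0126 and 0.0272). The glucocorticoid receptor gene Nr3c1 was at 5546 ± 272 and 4241 ± 718 and did not pass (limma adjusted p = 0.068). Its ketone values (3199 to 4805) all lay below its PBS values (5357 to 5937). Of all tested genes, 28.3% did not overlap in either direction.

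Genes linked to KLF2 and KLF4 in endothelium were split. Of 8 tested, 4 were higher and 0 lower (all tested genes, 12.8% in each direction and 25.7% in either). Nos3, the endothelial nitric oxide synthase, rose from 129 ± 44.0 to 1295 ± 527 normalized reads, and S1pr1, a sphingosine phosphate receptor, from 1275 ± 110 to 4963 ± 1451. Cdh5, which is also among the endothelial markers, rose by 2.54 and Plvap by 2.37 on the log2 scale. Thbd, the thrombomodulin gene, was at 6610 ± 1004 and 7346 ± 2094 and Plpp3 at 5455 ± 291 and 5647 ± 959, and neither passed (limma adjusted p = 0.684 and 0.883). In ketone library 3 Nos3 was at 536 and S1pr1 at 2939, the lowest ketone values of both. Plvap overlapped between groups, with 1213 in ketone library 3 and 1243 in PBS library 4.

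Genes linked to KLF15 in metabolism also moved in part. Of 10, 8 were tested, 3 rose and 1 fell (all tested genes, 12.8% in each direction and 25.7% in either). Prodh, of proline breakdown, rose by 0.82 ± 0.19 on the log2 scale (limma adjusted p = 0.00654). Slc2a4, the insulin-responsive glucose transporter, rose from 78.6 ± 4.21 to 243 ± 81.1 normalized reads, and Pnpla2, the triglyceride lipase, from 3331 ± 296 to 6154 ± 741 (limma adjusted p = 0.000951 and 0.000524). Gpt, an alanine transaminase, fell from 63.6 ± 12.3 to 26.4 ± 15.2 (limma adjusted p = 0.0377). Bcat2, of branched-chain amino acid breakdown, was at 639.9 ± 101 and 594 ± 164, and Acss2, which activates acetate, at 458 ± 26.1 and 595 ± 57.3 with no overlap; neither passed (limma adjusted p = 0.677 and 0.103). Cpt1b and Kcnip2 were below the filter.

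Of 9 cell cycle genes linked to KLF proteins, 1 rose and 4 fell (all tested genes, 12.8% in each direction and 25.7% in either). The inhibitor gene Cdkn1a, a target of KLF4 and KLF6, rose from 10263 ± 489 to 16175 ± 4322 normalized reads (log2 change 0.62, limma adjusted p = 0.0217). Ccnd1, the G1 cyclin that KLF5 activates, fell by 4.13, Ccne1 by 1.55 and Trp53 by 0.56 on the log2 scale. The fourth gene that fell was the mitotic cyclin gene Ccnb1, at 37.7 ± 20.98 in PBS and 2.96 ± 5.28 in ketone. Among 8 genes of the TGF-beta pathway linked to KLF6 and KLF10, 3 rose and 2 fell, to be read beside the same shares. Smad7, an inhibitor of the pathway, rose from 2041 ± 229 to 3849 ± 889 (limma adjusted p = 0.00223), Eng and Acvrl1, receptors that endothelial cells also express, rose by 1.09 and 0.86, and Plau fell by 0.91 and Col1a1 by 1.44 on the log2 scale. In ketone library 3, Eng at 916 and Acvrl1 at 489.8 lay within the PBS range. Col1a1 passed narrowly (limma adjusted p = 0.0494) and overlapped between groups. It was at 6600 in ketone library 1, within the PBS range of 2765 to 6767, and at most 1799 in the rest. Tgfb1 did not pass (limma adjusted p = 0.141).

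Klf2, Klf4, Klf6 and Klf10 respond early to stimulation, as the classical immediate early genes do, so these were read beside them. Of 18 immediate early genes 5 rose and 0 fell (all tested genes, 12.8% in each direction and 25.7% in either), with a median log2 change of 0.24. Ier3 rose by 1.02, Fosb by 0.93, Jund by 0.84 and Dusp1 by 0.75 on the log2 scale, and the fifth was Nr4a2. Fos (-0.02), Jun (-0.28), Egr1 (-0.11) and Atf3 (0.23) were not called, the values being log2 changes. Of 14 glucocorticoid response genes 4 rose and 1 fell, with a median of 0.49. Tsc22d3 (GILZ) rose from 5921 ± 1303 to 15005 ± 3737 normalized reads and Fkbp5 by 0.87 on the log2 scale, Angptl4 fell by 1.35, Zbtb16 rose by 0.98, and Trim63 had at most 6.30 normalized reads in any PBS library and at least 10.03 in any ketone library. Zbtb16 was at 6636 and 10271 in ketone libraries 1 and 2. In ketone libraries 3 and 4 it was at 3689 and 3905, within the PBS range of 2174 to 4073. Trim63 was highest, at 67.0, in ketone library 1, which also held the highest myofiber marker sum. Per1 and Pdk4 were at -0.11 and 0.02 and did not pass.

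**Figure D5:**
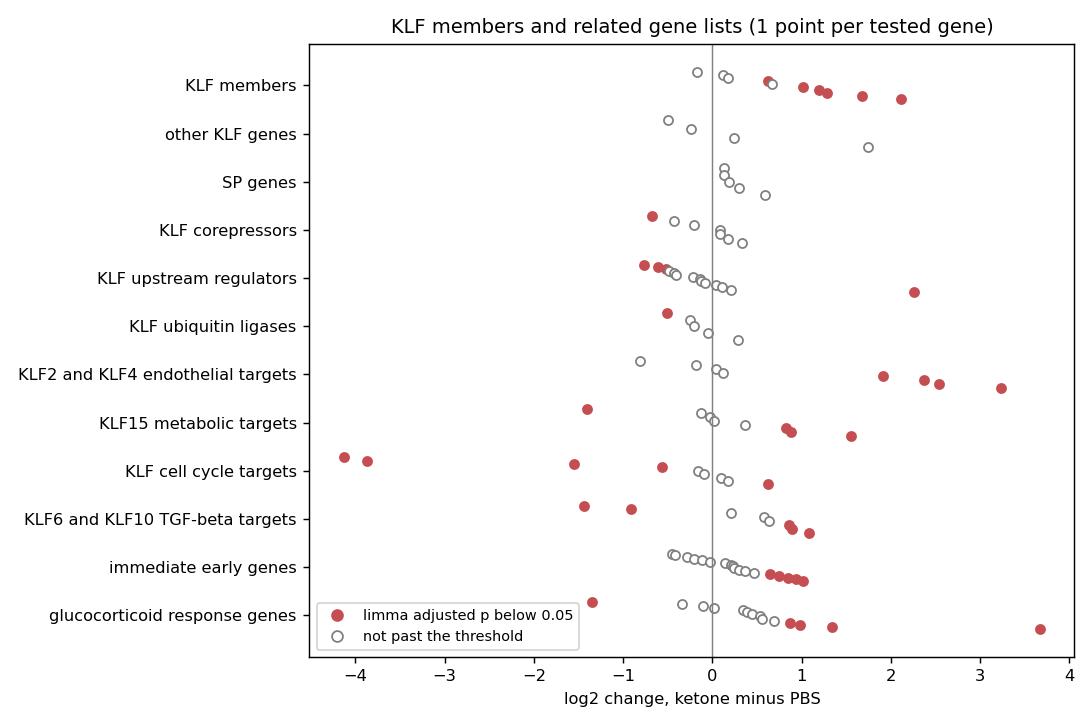
Log2 change, ketone minus PBS, of each tested gene (points) in the KLF members and 11 related lists (rows); filled points passed limma at an adjusted p below 0.05. The KLF members called lie between 0.62 and 2.12, and none of the few other KLF or SP genes tested is filled. Of all tested genes, 25.7% passed. The members and lists were chosen with earlier results of these data known.

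Over the 8 libraries the genes whose log2 levels were most like Klf2 were Gbp4, B4galt4 and Car7, with Pearson r of 0.994, 0.993 and 0.993. Predicted genes (symbols of Gm and a number, or with Rik) were left out of this ranking of the tested genes. Gbp4, an interferon-inducible GTPase gene, ranged between 36.7 and 73.7 normalized reads in PBS, and between 366 and 785 in ketone, with its highest value in ketone library 1 and its lowest ketone value in library 3, as in Klf2. The same held for the carbonic anhydrase gene Car7, between 25.7 and 33.6 in PBS, and between 143 and 229.7 in ketone, and for the galactosyltransferase gene B4galt4, between 149.8 and 202 in PBS, and between 457 and 716 in ketone. With 8 libraries in 2 groups, such values describe these libraries only. No member fell, so there was no pattern to match in that direction.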

How the data were processed

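RNA of sorted muscle stem cells was copied from oligo(dT) primers, sheared and amplified, per the labels' protocols, so polyadenylated RNA is favoured and PCR copies count as reads. The submitters' processing notes name build mm10, STAR, Trim Galore, Subread, featureCounts and DESeq2; the sources used here give no version, setting or strand use. The deposited table holds a normalized signal, read counts divided by 1 factor per library by the authors. All values were whole multiples of 1 read within 0.001, so reads were recovered. In ketone libraries 3 and 4, where 1 read is worth 0.996 and 1.003 and so is close to a whole number, only 0.0743% and 0.111% of the undivided values were whole within that tolerance. Of 25239 rows, 2 held a date and were left out.

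The main test was limma 3.58.1 (R 4.3.3) on log2(value + 1) for genes with a mean of at least 10, without covariates, with a trend, two-sided, adjusted by Benjamini and Hochberg over 14022 genes (threshold 0.05). Fold changes on this scale understate low genes. edgeR 4.0.16 and DESeq2 1.42.0 ran on recovered reads. Exon lengths came from GENCODE M21 (96.5% of symbols matched) and promoters from RefSeq. Every pair of libraries differed by more than counting noise (lowest chi-square 13.4 per degree of freedom). The scripts were tested on simulated data in which few genes changed. Limma called 9.33% of 1.5-fold, 56% of 2-fold, 86.7% of 4-fold and 88.7% of 8-fold changes, and 4.19% of its calls were false. A gene that did not pass is therefore not shown to be unchanged. The members and lists were chosen with earlier results of these data known. Named were all members, up to 4 called genes with the smallest p of each list other than markers, and the 3 genes most like the member with the largest rise; the fifth called genes of 4 lists (Cdkn1a, Col1a1, Nr4a2 and Zbtb16), genes of the sort gate and genes named because they did not pass were chosen after their values were seen.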

Additional observations from a re-analysis of the deposited data

Results flagged for a closer look

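In ketone library 2, Klf9 stood apart from the other ketone libraries: the gap to the next value was 0.931 of the range of its group, above Dixon's 95% critical value for a group of that size. Its values were 37736 normalized reads there and 22182 to 23255 in the other 3. This was 1 of 20 groups of 4 examined (10 members in 2 treatments), and chance flags about 1 in 20.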

How the results depend on the processing

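The number of genes changed and the KLF calls were recomputed under 19 alternatives. Under the 18 without the covariate, 175 of 180 member results kept their direction and their side of the threshold, and all 6 called members stayed called. The other 5 were of Klf13, which passed with DESeq2 and without ketone library 3 or 4, and of Klf9. The log2 change of Klf9 was -0.0651 without ketone library 2 and -0.0678 without ketone libraries 1 and 2. Over the fits that leave out 1 library it reached 0.190 (without ketone library 3), and with quantile normalization it was 0.269. The cause was not tested. Leaving out 1 library at a time gave 6 to 7 members higher, 0 lower, and 2354 to 4076 genes changed, the lowest without PBS library 1, against 3600. With the endothelial marker mean as a covariate 0 genes and 0 members passed by limma (1464 genes and 2 members, Klf10 and Klf15, at an unadjusted p below 0.05), and the log2 changes of Klf3, Klf9 and Klf13 were -0.0233, -0.54 and -1.21; the covariate follows the groups. The labels do not say whether the library numbers pair the samples. Deviations from the group means had correlations of 0.11, -0.01, 0.003 and -0.06 between the same-numbered libraries 1 to 4. Such values cannot show whether the samples were paired. With the library number as a replicate block 3595 genes and 6 members passed. Klf8, with a mean near the filter, had an SE of 0.91 on the log2 scale, larger than that of any member.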
